A study of Mus musculus with 4 samples.

Results

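The levels of 9 homeobox genes outside the Hox clusters were examined in C2C12 cells, an established mouse myoblast line, by nanopore direct RNA sequencing, in which each RNA molecule is read without amplification. The genes were *Pknox1*, *Pknox2*, *Meis1*, *Meis2*, *Pbx3*, *Lbx1*, *Tlx2*, *Msx1* and *Msx2*, 9 of the 56748 gene IDs in the count files. They were listed because *Pknox2*, *Tlx2* and *Lbx1* were lower in knockdown than in scrambled libraries, so the knockdown values of all 9 genes, and whether they met the rule for a call, are a description, and no p-value is given for them. There were 4 libraries. The 2 scrambled libraries came from wild-type C2C12 myoblasts carrying a scrambled shRNA, and the 2 knockdown libraries from the same line carrying a mix of shRNAs against *Hnrnpl*, which encodes the RNA-binding and splicing factor hnRNP L. Cells of both groups carried the plasmid's eGFP reporter, were picked as eGFP-positive clones, were selected with puromycin and were kept in growth medium. The replicates of a group were passages of 1 selected stable line, so a difference between groups cannot be told apart from a difference between the selected lines, and the spread within a group is that between passages. Replicate number 1 or 2 marks the batch, and each batch holds 1 library of each group.

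The libraries held 1229424 to 1676911 reads counted to genes. *Hnrnpl* itself had 358 and 656 reads in the scrambled libraries against 242 and 258 in the knockdown libraries, a log2 fold change of -0.78 (SE 0.18, adjusted p = 0.0112, edgeR). This call was lost without scrambled 2 (log2 fold change -0.48, adjusted p = 0.194) and without knockdown 1 (-0.62, adjusted p = 0.150). Among 10 myoblast markers, *Vim* had at least 17445 reads in each library and *Myf5* at least 113, while *Myod1* had 1 read in all 4 libraries and *Mstn* had none.

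Homeobox genes encode transcription factors that bind DNA through the homeodomain, whose recognition helix lies in the major groove and reads the bases. The Pknox, Meis and Pbx proteins belong to the TALE class, named for a loop of 3 additional amino acids in the homeodomain. Meis and Pknox proteins form dimers with Pbx proteins, and these complexes join Hox proteins and, in muscle, the myogenic factor MyoD on DNA. Lbx1 is known for its role in muscle precursors that migrate from the somites into the limbs, Tlx2 for its role in enteric neurons and other neural crest derivatives, and Msx1 and Msx2 for keeping progenitor cells undifferentiated downstream of BMP signals.

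The part of each homeobox that encodes the recognition helix is shown to compare the 9 genes. Each stretch holds 30 bases of the coding strand, from GRCm39 with the GENCODE vM39 canonical transcript, and the third codon, which encodes a residue of the helix that faces the DNA bases, is in capitals.
Pknox1: tggttcATCaacgcgagaagacgaattctc
Pknox2: tggttcATCaatgccaggaggcgcatcctg
Meis1: tggtttATTaatgcccggagaagaatagtg
Meis2: tggtttATCaatgccagaagaagaatagtg
Pbx3: tggtttGGCaacaaacgaatcaggtacaag
Lbx1: tggttcCAGaaccggcgcgccaagctcaag
Tlx2: tggttcCAGaaccgacgcaccaagtggcgg
Msx1: tggttcCAGaaccgtcgcgctaaggccaag
Msx2: tggttcCAGaaccgaagggctaaggcgaaa

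The capitals separate the genes into groups: ATC or ATT in the Pknox and Meis genes, GGC in *Pbx3* and CAG in *Lbx1*, *Tlx2*, *Msx1* and *Msx2*. *Pknox1* and *Pknox2* were identical at 23 of 30 bases, *Meis1* and *Meis2* at 27, and *Msx1* and *Msx2* at 25. A TALE gene and a gene of the other group shared 10 to 17 bases, with a median of 11.5 over 20 pairs, and 2 TALE genes shared 13 to 27, with a median of 21 over 10 pairs. These ranges overlap because of *Pbx3*, which shared 13 to 15 bases with the other TALE genes and 14 to 17 with *Lbx1*, *Tlx2*, *Msx1* and *Msx2*. *Pknox2* and *Tlx2*, which both had lower reads in the knockdown libraries, shared 12 of 30. In *Pbx3*, *Lbx1*, *Msx1* and *Msx2* the stretch lies within 1 exon, and in the others it crosses an exon junction. The *Lbx1* stretch is at chr19:45222479-45222508 on the minus strand, in exon 2 of 2.

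Over the 9 genes together, the scrambled libraries had 202 and 277 reads and the knockdown libraries 130 and 131. Expressed as reads per 1000000 counted reads with TMM scaling (CPM), these sums were 151 and 166 CPM against 92.4 and 109 CPM. *Pknox2*, *Tlx2* and *Lbx1* made up 74.7 and 88.2 CPM of this in scrambled against 18.5 and 23.3 CPM in knockdown. The other 6 genes summed to 76.2 and 78.0 CPM in scrambled against 73.9 and 85.9 CPM in knockdown, so their summed level overlapped between the groups. In bulk RNA, fewer cells that express a gene and less RNA of it per cell cannot be told apart.

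**Figure D1:**
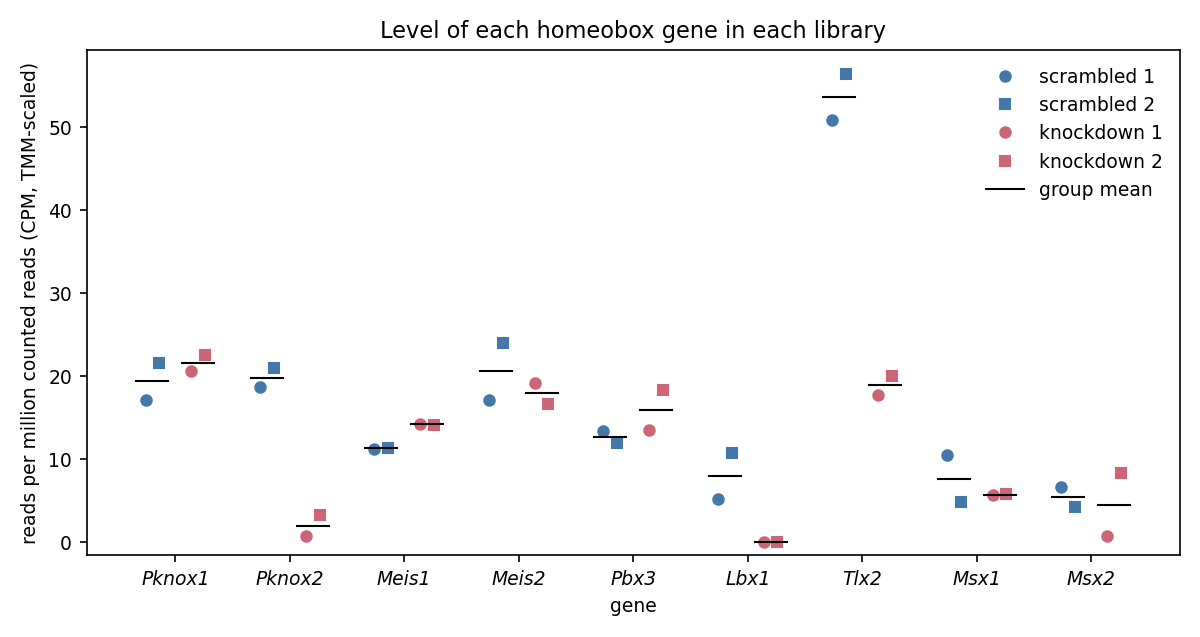
Level of each of the 9 genes in each library, as TMM-scaled CPM on a linear axis starting just below 0, with circles for batch 1, squares for batch 2, blue for scrambled, red for knockdown and a bar for the mean of the 2 libraries. *Pknox2*, *Tlx2* and *Lbx1* are lower in both knockdown libraries than in both scrambled libraries, and *Tlx2* is the highest of the 9 genes in scrambled, at 50.8 and 56.4 CPM.

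A gene entered the test across genes if it passed edgeR's expression filter, which 6 of the 9 genes and 8670 genes in all did. A call required a mean normalized count over 10, a log2 fold change beyond 0.5 in either direction, and an adjusted p under 0.05. Of the 6 tested genes 2 met this rule, *Pknox2* and *Tlx2*, both lower, where 5.55% of all tested genes were called, 3.22% lower and 2.33% higher. The median log2 fold change of the 6 genes was -0.04, and that of all tested genes was -0.00059. *Lbx1*, *Msx1* and *Msx2* had too few reads for the test. The groups did not overlap for 5 of the 9 genes, which was so for 39.5% of the 16728 genes with reads and for 52.4% of those tested, 26% with knockdown lower. These 5 were *Pknox2*, *Tlx2* and *Lbx1*, lower in knockdown, and *Meis1* and *Pbx3*, higher. Since the genes were chosen on this contrast, nothing is read from these shares.

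Pknox2 and its paralogue Pknox1, also called Prep2 and Prep1, are TALE partners of Pbx proteins. *Pknox2* (ENSMUSG00000035934.17, chr9:36801548-37059214, minus strand) had 25 and 35 reads in scrambled 1 and 2, or 18.7 and 21.0 CPM. It had 1 and 4 reads in knockdown 1 and 2, or 0.711 and 3.33 CPM. Every scrambled library thus lay above both knockdown libraries, with a mean of 19.8 ± 1.65 CPM against 2.02 ± 1.86 CPM (SD, n = 2 each). The ratio of summed CPM (the reads of both libraries over their summed scaled sizes), knockdown over scrambled, was 0.0961, with a 95% counting interval of 0.0301 to 0.237, and the fitted log2 fold change was -3.31 (SE 0.53). With so few knockdown reads the size depended on the libraries used. It was -4.65 without knockdown 2 and -2.55 without knockdown 1. Without scrambled 2 the log2 fold change was -3.22, but the mean normalized count fell to 9.99 and the gene was no longer called. The median of all tested genes on chromosome 9 was -0.37, and with chromosome medians removed the log2 fold change of *Pknox2* was -2.96.

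*Pknox1* (ENSMUSG00000006705.14, chr17:31783674-31826696, plus strand) had 23 and 36 reads in scrambled against 29 and 27 in knockdown, or 17.2 and 21.6 CPM against 20.6 and 22.5 CPM. These ranges overlap, the ratio was 1.09 (counting interval 0.745 to 1.60) and the log2 fold change was 0.14 (SE 0.30). It turned to -0.06 with chromosome medians removed, where that of chromosome 17 was 0.19, and to -0.01 without scrambled 1. Of the reads of the 2 Pknox genes, *Pknox2* therefore made up 52.1% and 49.3% in the scrambled libraries against 3.33% and 12.9% in the knockdown libraries. Over both libraries of a group this was 60 of 119 reads, or 50.4% (Clopper-Pearson 95% interval 41.1 to 59.7), in scrambled. In knockdown it was 5 of 61 reads, or 8.20% (2.72 to 18.1). The intervals cover counting error only. No 31-base stretch of either canonical transcript occurs in a transcript of another gene. Exons of an opposite-strand gene cover 7.70% of the *Pknox2* transcript and 4.38% of the *Pknox1* transcript. The gene opposite *Pknox1* is among the counted gene IDs, and the gene opposite *Pknox2* is not. The strand setting of the counting is not given in the sources used here.

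The Meis proteins are another TALE family that pairs with Pbx and Hox proteins, and Meis1 is also known as a cofactor in blood stem cells and leukaemia. *Meis1* (ENSMUSG00000020160.19, chr11:18829817-18969749, minus strand) had 15 and 19 reads in scrambled against 20 and 17 in knockdown. In CPM, this was 11.2 and 11.4 CPM against 14.2 and 14.2 CPM, so that both knockdown libraries lay above both scrambled libraries. The counting interval of the ratio of 1.25 was 0.766 to 2.06, which spans 1, and the log2 fold change was 0.33 (SE 0.36). *Meis2* (ENSMUSG00000027210.21, chr2:115693062-115896341, minus strand) had 23 and 40 reads in scrambled against 27 and 20 in knockdown, or 17.2 and 24.0 CPM against 19.2 and 16.7 CPM. The groups overlap, with a ratio of 0.860 (0.577 to 1.28) and a log2 fold change of -0.21 (SE 0.31). This value turned to 0.06 without scrambled 2. The share of *Meis1* among the reads of both Meis genes was 35.1% (25.6 to 45.4) over the scrambled and 44.0% (33.2 to 55.3) over the knockdown libraries, and these intervals overlap. The 2 Meis transcripts are also partly covered by genes on the opposite strand, 7.32% of *Meis1* and 12.3% of *Meis2*. A counted gene on the same strand covers 1.75% of *Meis1*. Of the 31-base stretches of the *Meis1* transcript, 1.41% occur in transcripts of other genes, 1170 in all.

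*Pbx3* (ENSMUSG00000038718.16, chr2:34061469-34263154, minus strand) encodes a Pbx protein, the common dimer partner of Meis and Pknox proteins. It had 18 and 20 reads in scrambled against 19 and 22 in knockdown, or 13.4 and 12.0 CPM against 13.5 and 18.3 CPM. Knockdown 1 exceeded scrambled 1 by little, and the counting interval of the ratio of 1.24 was 0.780 to 1.99. The log2 fold change was 0.32 (SE 0.35), and 0.09 without knockdown 2 and 0.53 without knockdown 1. Among the TALE genes of the list, the value of *Pknox2* lay below those of the other 4, whose log2 fold changes ran from -0.21 to 0.33.

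**Figure D2:**
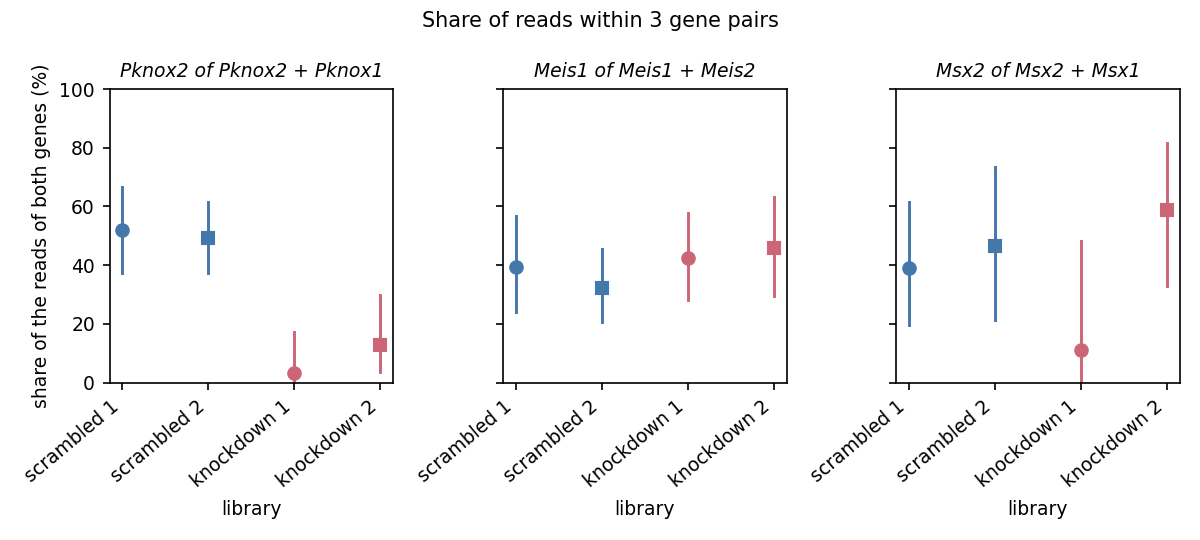
Share of *Pknox2*, *Meis1* and *Msx2* among the reads of each gene and its paralogue, in percent, in each library, with Clopper-Pearson 95% intervals that cover counting error only. The *Pknox2* share is 52.1% and 49.3% in scrambled against 3.33% and 12.9% in knockdown, while the intervals of the libraries overlap for *Meis1* and *Msx2*.

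Tlx2 is a homeobox factor of the NK-like class. *Tlx2* (ENSMUSG00000068327.6, chr6:83045305-83049853, minus strand) had 68 and 94 reads in scrambled 1 and 2 against 25 and 24 in knockdown 1 and 2. This was 50.8 and 56.4 CPM against 17.8 and 20.0 CPM, with means of 53.6 ± 3.98 CPM and 18.9 ± 1.58 CPM (SD, n = 2 each). Each scrambled library was more than the sum of both knockdown libraries. The ratio was 0.349 (counting interval 0.248 to 0.483) and the log2 fold change was -1.51 (SE 0.24). Over 11 alternative settings the log2 fold change ran from -1.79 to -1.42. The lowest of these was with chromosome medians removed, since the median of tested genes on chromosome 6 was 0.28. Of the 31-base stretches of its canonical transcript, 0.128% occur in another gene, *Tlx3*, which had no reads in any library.

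*Lbx1* (ENSMUSG00000025216.10, chr19:45221109-45225311, minus strand) had 7 and 18 reads in scrambled 1 and 2, or 5.23 and 10.8 CPM. It had 0 reads in both knockdown libraries. With 3 reads over the group taken as the limit that a count of 0 allows, its knockdown level was at most 1.15 CPM and at least 7.23-fold lower than in scrambled. The 95% counting interval of the ratio, which also covers the counting error of the scrambled reads and so is the weaker bound, ended at 0.183. The bound fell to 3.33-fold without knockdown 1, to 3.90-fold without knockdown 2 and to 4.54-fold without scrambled 2, because a single library of 0 reads, or fewer scrambled reads, limits the fold less tightly. It rose to 9.39-fold without scrambled 1. *Lbx1* had a mean normalized count of 5.62, below the minimum of 10 for a call.

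The Msx genes were low in every library. *Msx1* (ENSMUSG00000048450.11, chr5:37977829-37981928, minus strand) had 14 and 8 reads in scrambled against 8 and 7 in knockdown, or 10.5 and 4.80 CPM against 5.69 and 5.84 CPM. Both knockdown values lie between the 2 scrambled values, and the ratio of 0.786 had a counting interval of 0.379 to 1.59. *Msx2* (ENSMUSG00000021469.10, chr13:53620914-53627110, minus strand) had 9 and 7 reads in scrambled against 1 and 10 in knockdown, or 6.72 and 4.20 CPM against 0.711 and 8.34 CPM. Its 2 knockdown libraries were the lowest and the highest of the 4, and the Poisson 95% intervals of their reads were 0.0253 to 5.57 and 4.80 to 18.4. The ratio of 0.793 (0.333 to 1.82) therefore rested on which library was used. Its log2 value was -2.91 without knockdown 2 and 0.65 without knockdown 1. That of *Msx1* was 0.26 without scrambled 1. At this depth no difference of either Msx gene was detectable. Of the 31-base stretches of the canonical *Msx2* transcript, 1.07% occur in transcripts of other genes, 3520 in all.

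**Figure D3:**
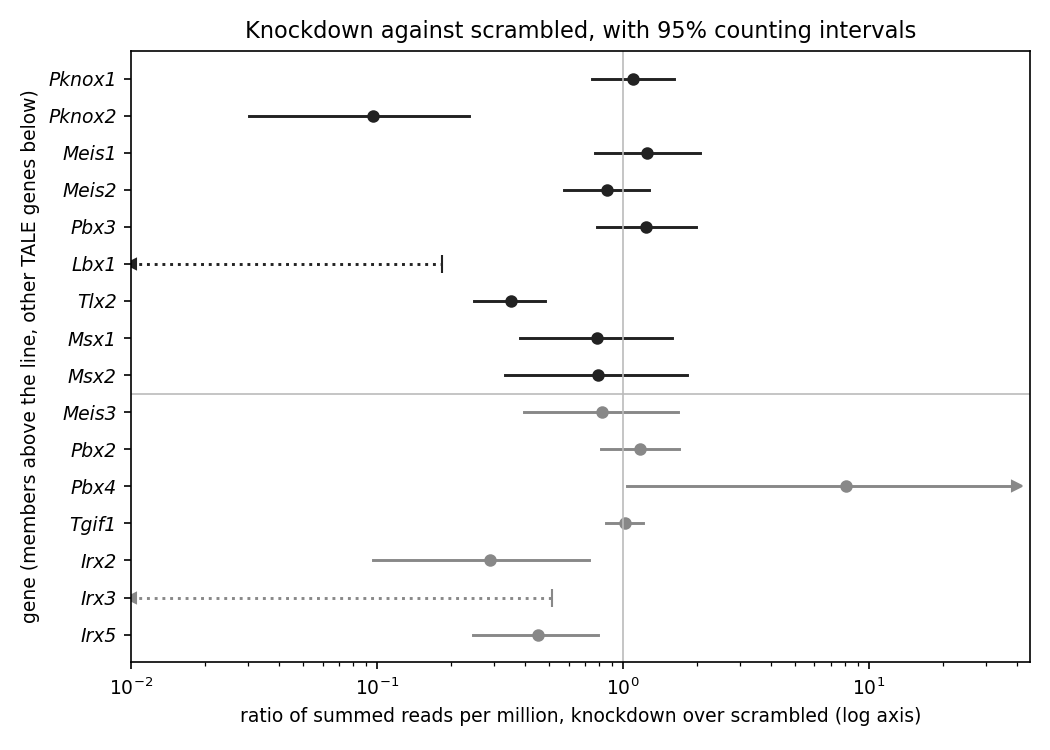
Ratio of the summed CPM of both libraries, knockdown over scrambled, on a log axis, with exact 95% counting intervals, for the 9 genes above the line and 7 other TALE genes below it. Dotted lines ending in a tick are upper limits for genes with 0 reads in both knockdown libraries, and arrows mark values that run off the axis. The intervals of *Pknox2*, *Lbx1* and *Tlx2* end at 0.237, 0.183 and 0.483, and those of the other 6 of the 9 genes include 1.

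By mean CPM in scrambled, the order of the genes was *Tlx2* at 53.6, *Meis2* at 20.6, *Pknox2* at 19.8, *Pknox1* at 19.4, *Pbx3* at 12.7, *Meis1* at 11.3, *Lbx1* at 8.02, *Msx1* at 7.63 and *Msx2* at 5.46 CPM. Since a direct RNA read stands for 1 molecule, division by length lowers long transcripts relative to short ones, and the order per length is given beside this one. For it, the summed CPM of both libraries, not their mean, was divided by the length of the canonical transcript in kb. This length runs from 1587 bases for *Tlx2* to 4362 for *Pknox2*. In scrambled, the value was 34.0 CPM per kb for *Tlx2*, followed by *Meis2* at 5.11, *Pknox2* at 4.58, *Pknox1* at 4.55, *Msx1* at 3.78, *Pbx3* at 3.54, *Meis1* at 3.35, *Lbx1* at 3.33 and *Msx2* at 2.2. Only *Tlx2* was apart from the next gene in this order, since the library values of all other neighbours overlapped. In knockdown the order was *Tlx2* at 11.8, *Pknox1* at 4.98, *Pbx3* at 4.41, *Meis2* at 4.39, *Meis1* at 4.21, *Msx1* at 2.97, *Msx2* at 1.72, *Pknox2* at 0.440 and *Lbx1* at 0 CPM per kb. *Tlx2* stayed highest, and *Pknox2* moved from place 3 to place 8. The neighbours *Tlx2* and *Pknox1* did not overlap, nor did *Meis1* and *Msx1*, while the 0 reads of *Lbx1* do not set it apart from *Pknox2* at this depth.

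hnRNP L is known to bind CA-rich RNA. The motif CACACACA was searched on the sense strand of the canonical transcripts, with overlapping matches counted. It occurred in 3 of the 9 genes. It was found in 18.8% of 21630 protein-coding genes in the count files and in 20.1% of the 8231 of them that were tested. The 3 genes have the longest transcripts of the 9, from 4106 to 4362 bases, and these shares are not matched for length. Introns were not searched. *Pknox1* had 1 match in the coding sequence (chr17:31823890-31823897), *Pknox2* had 1 in the 3′ UTR (chr9:36802980-36802987) and *Meis2* had 6 in an 18-base CA run of the 3′ UTR (chr2:115693935-115693952). The other 6 genes, among them *Lbx1* and *Tlx2*, had no match in these transcripts. A match of letters shows neither a bound site nor a cause.

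Genes with the most similar pattern were found by the Euclidean distance between log2 CPM values centred over the 4 libraries, among 8529 genes with a mean normalized count over 10. Nearest to *Pknox2* were *Sprr1a*, which encodes a small proline-rich protein of the epidermal envelope (distance 0.535), *Fhl1*, which encodes a LIM protein abundant in muscle (0.590), and *Osbpl6*, of the oxysterol-binding protein family (0.635). *Fhl1* had 376 and 414 reads in scrambled against 45 and 51 in knockdown. Nearest to *Tlx2* were the beta-tubulin gene *Tubb2b* (0.176), the caspase gene *Casp12* (0.207) and *Pfkl*, which encodes a phosphofructokinase (0.215). *Tubb2b* had 100 and 141 reads in scrambled against 35 and 31 in knockdown. Nearest to *Lbx1* were the membrane-type metalloproteinase gene *Mmp15* (0.410), the transcription factor gene *Sox11* (0.542) and the extracellular sulfatase gene *Sulf2* (0.600). *Mmp15* had 17 and 37 reads in scrambled and 1 read in each knockdown library. With 4 libraries, a short distance says little more than that a gene was lower in knockdown by a like amount.

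The other 13 TALE genes were not part of the list, and 8 of them had reads. Of the 4 that were tested, edgeR called 0, DESeq2 with a local and with a parametric fit also called 0, and 2 had an unadjusted p under 0.05 in edgeR. For *Irx5*, an Iroquois gene, the log2 fold change was -1.13 (SE 0.41, adjusted p = 0.115). Its reads were 16 and 30 in scrambled against 8 and 10 in knockdown. Fitted log2 fold changes were 0.23 for *Pbx2* (SE 0.32, adjusted p = 0.719) and 0.03 for *Tgif1*, which encodes a TALE repressor of TGF-beta signalling (SE 0.17, adjusted p = 0.936). Both directions turned in some settings: *Pbx2* was at -0.09 without knockdown 1 and -0.03 without scrambled 1, and *Tgif1* at -0.08 without scrambled 1, -0.04 without knockdown 2 and -0.16 with chromosome medians removed. Among the genes too low to test, *Irx3* had 3 and 7 reads in scrambled and 0 in both knockdown libraries, at least 2.89-fold lower by the limit of 3 reads, with a counting interval that ended at 0.514. *Meis3* had 10 and 11 reads against 9 and 6, a ratio of 0.824 (counting interval 0.395 to 1.68). *Pbx4* had 0 and 1 against 5 and 2, a ratio of 8.07 (counting interval 1.04 to 364). *Irx2* had 13 and 11 reads against 2 and 4, a ratio of 0.288 (counting interval 0.0964 to 0.724). The summed level of the Iroquois genes was 23.9 and 28.8 CPM in scrambled against 7.11 and 11.7 CPM in knockdown.

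Of 131 other homeobox genes outside the Hox clusters, close relatives included, 27 were tested and 3 were called, or 11.1%, and their median log2 fold change was -0.12. *Dlx3*, which acts in epidermis, placenta and bone, fell from 31 and 51 reads to 13 and 10, with a log2 fold change of -1.61 (SE 0.34, adjusted p = 0.00798). *Prrx2*, a gene of limb mesenchyme, rose from 165 and 215 reads to 325 and 264 (0.84, SE 0.15, adjusted p = 0.00182). *En1*, known for dorsoventral patterning, rose from 20 and 34 reads to 52 and 45 (1.05, SE 0.27, adjusted p = 0.0274). *Prrx2* was called under all 11 alternative settings. DESeq2 called neither *Dlx3* nor *En1*. The call of *Dlx3* was also lost without knockdown 1 (adjusted p = 0.0635) and without scrambled 2 (0.0679). That of *En1* was lost without knockdown 1 (0.115), knockdown 2 (0.0734) or scrambled 1 (0.118), and with chromosome medians removed (0.101). The nearest relatives of *Lbx1*, *Tlx2* and the Msx genes were at or near 0: *Lbx2* had 1 read in scrambled 2 and 1 in knockdown 2, and *Tlx1*, *Tlx3* and *Msx3* had none.

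The Hox genes, whose proteins bind DNA together with TALE proteins, had reads for 23 of 39 genes. Of the 8 tested, edgeR called 0, DESeq2 with either fit called 0, and 2 had an unadjusted p under 0.05. These were *Hoxa10* (log2 fold change 0.64, SE 0.25, adjusted p = 0.134) and *Hoxa11* (0.69, SE 0.29, adjusted p = 0.172). Both lie on chromosome 6, whose median of tested genes was 0.28. With chromosome medians removed, 0 of the 8 had an unadjusted p under 0.05. Of 10 Hoxb genes, 4 had no reads and the other 6 were too low for the test. They had 41 and 37 reads in the scrambled libraries against 0 and 1 in the knockdown libraries, and were singled out after these values were seen. *Hoxb9* had 22 and 11 reads in scrambled and 0 in both knockdown libraries, at least 9.54-fold lower by the limit of 3 reads, with a counting interval of the ratio that ended at 0.136. The same limit gave 5.78-fold for *Hoxb7* and 3.47-fold for *Hoxb6*, with intervals that ended at 0.234 and 0.415. *Hoxb9* was tested only in some settings, and without knockdown 2 it was called, which made 1 Hox gene.

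**Figure D4:**
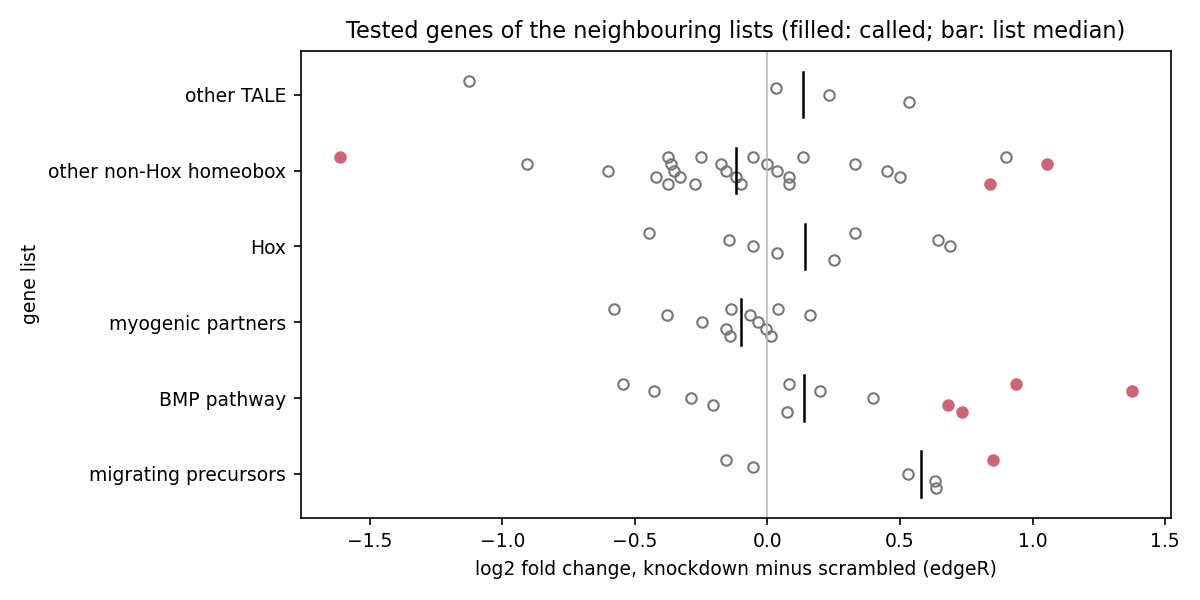
Fitted log2 fold change, knockdown minus scrambled, of each tested gene of 6 lists around the 9 genes, with filled red circles for called genes and a bar at the median of each list. Called genes are *Dlx3* on the left and *En1* and *Prrx2* on the right among the homeobox genes, the 4 BMP pathway genes *Id1*, *Id2*, *Id3* and *Grem1* and the chemokine gene *Cxcl12*.

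Genes that act with these factors were also followed. Among 15 myogenic partners of TALE proteins (myogenic regulators, E proteins, Mef2 factors and co-regulators), 12 were tested and edgeR and both DESeq2 fits called 0, with 1 at an unadjusted p under 0.05 in edgeR. *Myf5*, an early myogenic regulator, had 157 and 190 reads in scrambled against 158 and 113 in knockdown. Among 20 genes of the BMP pathway, which acts upstream of the Msx genes, 12 were tested and 4 were called, all higher. These were the inhibitors of bHLH factors *Id1* (log2 fold change 0.94, SE 0.15, adjusted p = 0.000935), *Id2* (1.37, SE 0.15, adjusted p = 1.85e-05) and *Id3* (0.73, SE 0.15, adjusted p = 0.00459), which are BMP targets, and the secreted BMP antagonist *Grem1* (0.68, SE 0.15, adjusted p = 0.0102). *Id2* had 150 and 189 reads in scrambled against 378 and 380 in knockdown. *Id3* was not called without knockdown 1 (adjusted p = 0.0562), nor *Grem1* without knockdown 2 (0.110) or by DESeq2 with a parametric fit (0.0514). The ligand genes *Bmp2*, *Bmp4* and *Bmp7* had no reads, and of the receptor genes *Bmpr1a*, *Bmpr2* and *Acvr1* were tested and not called, with a log2 fold change of -0.43 (adjusted p = 0.183) for *Bmpr1a*. The median log2 fold change of the 12 genes was 0.14.

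Of 10 genes around *Lbx1* in migrating muscle precursors, 6 were tested and 1 was called. *Cxcl12*, which encodes the chemokine that guides cells bearing Cxcr4, rose from 75 and 97 reads to 157 and 113 (0.85, SE 0.17, adjusted p = 0.00558), but the median of chromosome 6 was 0.28. It was not called with that median removed (adjusted p = 0.0779), without knockdown 1 (0.0810) or by DESeq2 with a parametric fit (0.182). In edgeR, 2 of the 6 had an unadjusted p under 0.05, and only *Cxcl12* still did with chromosome medians removed. *Met*, which encodes the receptor that releases these precursors from the somite, had a log2 fold change of 0.53 (SE 0.16, adjusted p = 0.0599). *Pax3*, which acts upstream of *Lbx1* and *Met* in these cells, had no read in any library.

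Marker genes of 4 cell types were also read. Of 7 tested myoblast markers 4 were called lower, namely *Cdh15* (log2 fold change -2.55, adjusted p = 2.03e-06), *Chrna1* (-1.53, adjusted p = 3.4e-05), *Ncam1* (-1.47, adjusted p = 0.00231) and *Des* (-0.56, adjusted p = 0.0308). Of the list, 3 were called with the replicate block, 2 by DESeq2 with a parametric fit and 3 or 4 with a library left out. The summed level of the myoblast list, most of it *Vim*, was 15846 and 16244 CPM in scrambled against 13292 and 14972 CPM in knockdown. Of 7 markers of neurons and neural crest, where *Tlx2* is known to act, only *Tubb3* and *Ret* had reads, and the list summed to 115 and 90.0 CPM in scrambled against 14.2 and 15 CPM in knockdown. *Tubb3* had 150 and 149 reads in scrambled against 20 and 18 in knockdown (-2.77, adjusted p = 4.82e-07), while *Sox10*, *Elavl4*, *Snap25* and *Rbfox3* were at 0 in all libraries. The osteoblast list had reads for 3 of 7 genes, with *Sp7*, *Ibsp*, *Alpl* and *Dmp1* at 0, and summed to 612 and 400 CPM in scrambled against 910 and 538 CPM in knockdown. Most of this was *Spp1*, with 708 and 525 reads against 1187 and 563, while *Runx2* had 109 and 139 against 92 and 82. Of the 2 tested genes of this list edgeR and both DESeq2 fits called 0, with 1 at an unadjusted p under 0.05, and 1 was called with the replicate block, with no filter, without scrambled 1 or without knockdown 2. The adipocyte list had reads for 5 of 6 genes and summed to 26.1 and 28.8 CPM in scrambled against 54.0 and 42.5 CPM in knockdown, and 1 of its 2 tested genes, *Pparg*, was called higher (1.42, adjusted p = 0.00271) but was not when knockdown 1 was left out or by DESeq2 with a parametric fit. *Cebpa* had an adjusted p of 0.0316 (-2.12) with 12 and 14 reads against 3 and 2, too few for a call. The part of any of these markers in the levels of the 9 genes was not tested.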

How the data were processed

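The authors sequenced total RNA directly (1 library per replicate), used minimap2 2.17 for mapping to GRCm39 and HTSeq 0.9.1 for gene counting, and deposited raw read counts. The annotation release and strand setting are not given in the sources used here. Per library, 42.2 to 43.5% of reads were not assigned to a gene (16.0 to 16.5% as ambiguous) and were left out. Of 56748 gene IDs, 56017 were found in GENCODE vM39.

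Counts were fitted in edgeR 4.0.16 (R 4.3.3) with TMM factors, filterByExpr and the quasi-likelihood test, with Benjamini-Hochberg adjustment over 8670 genes. CPM is TMM-scaled, and normalized counts are scaled to the mean library size. The limit set for a count of 0 was 3 reads over a group. Intervals are 95% exact intervals and cover counting error only, while the mean chi-square of a gene between replicates was 2.40 (scrambled) and 2.59 (knockdown), against 1 for counting error alone. Alternatives were RLE factors, no filter, at least 10 reads in every library, DESeq2 1.42.0 with parametric or local fit, a replicate block, chromosome medians removed and each library left out. Scripts were tested on simulated data. Replicate numbers pair the libraries by batch, per the labels. The deviations of same-numbered libraries had a correlation of -0.014 over 7705 genes.

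Named are the 9 genes, *Hnrnpl*, the tested TALE genes, genes of the other lists with an adjusted p under 0.05 and, for *Pknox2*, *Tlx2* and *Lbx1*, the 3 nearest genes. Those named beyond this (low-count TALE and Hoxb genes, *Hoxa10*, *Hoxa11*, BMP ligands and receptors, *Met*, *Myf5*, *Pax3* and markers) were added once their values had been seen. The genes and lists were chosen with earlier results of these data known. Values of 1 other TALE gene and of 1 marker are not reported here. Sequences of proteins were not used here.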

Additional observations from a re-analysis of the deposited data

How the results depend on the processing

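With 2 libraries per group and 1 to 4 *Pknox2* reads per knockdown library, the depth limits the size of the fold changes of *Pknox2*, *Lbx1* and the Msx genes. With at least 10 reads in every library, *Pknox2* was not in the fit and 1 of the 9 genes was called, and with a library left out 1 to 2 were called. For *Hnrnpl*, DESeq2 with a parametric fit gave a log2 fold change of -0.78 that missed the threshold (adjusted p = 0.0567), and leaving out a library gave -1.03 to -0.48. The genes called among all genes numbered 481, against 115 (DESeq2, parametric), 228 (DESeq2, local), 285 (chromosome medians removed) and 194 to 433 with a library left out, the lowest without knockdown 1. Of the other non-Hox homeobox genes, 1 was called by DESeq2 with either fit and 1 to 3 with a library left out. For the Hox genes this was 0 to 1 with a library left out. Of the partner, BMP and migrating precursor genes together, 5 were called, 3 by DESeq2 with a parametric fit and 3 to 5 with a library left out. The causes were not tested. With the replicate block, which uses the pairing by batch, 484 of all genes were called, 2 of the 9 genes, 0 other TALE, 3 other non-Hox homeobox, 0 Hox and 5 partner, BMP and migrating precursor genes, and the block changed the count of all genes but not those of the lists, the myoblast and osteoblast markers excepted. The log2 fold change of *Hnrnpl* with the block was -0.76 and that of *Pknox2* was -3.30. Scaling moved the median of all genes by less than 0.1 on the log2 scale.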
